A study of Mus musculus with 9 samples.

Results

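The genes described here are 33 genes of cholesterol and fatty acid synthesis, chosen by symbol from a list of enzymes and regulators and read from a table of 52208 mouse gene symbols. All 33 had a row, and all 33 held enough counts to be tested, among 16766 tested genes. They comprise 17 enzymes of the mevalonate and sterol pathway, 5 genes of its regulation and transport, and 11 enzymes of fatty acid synthesis, elongation and desaturation. Messenger RNA was sequenced from 66cl4, a mouse mammary carcinoma line labelled as triple negative, in 9 libraries of 3 groups with 3 biological replicates each. Add-back cells carried a short hairpin RNA against Eya3, a transcriptional coactivator and phosphatase, together with IKK2-SE, an active form of the kinase that turns on NF-kB. Knockdown cells carried the same hairpin with an empty vector. Scramble cells carried a control hairpin with an empty vector. Cells of the 3 groups were held in puromycin after hairpin transduction, and the empty vector or IKK2-SE cells were selected on mCherry. The groups analysed here hold 1 Eya3 hairpin and no cells with both the control hairpin and IKK2-SE. The labels do not say whether replicates came from separate transductions, and a p-value here reflects no more than the differences among these 9 cultures.

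Animal cells build cholesterol from acetyl-CoA through mevalonate, squalene and lanosterol, and build fatty acids from acetyl-CoA through malonyl-CoA. Both routes are under SREBP transcription factors, which Scap escorts from the endoplasmic reticulum for activation and which Insig proteins hold back when sterols are plentiful. SREBP-2, encoded by Srebf2, is best known for driving sterol genes, and SREBP-1, encoded by Srebf1, for driving fatty acid genes. Several target genes, Insig1 among them, feed back on the pathway.

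Library totals ran from 63601403 to 81534534 counts. Levels are library-size-scaled counts (CPM, normalised by the TMM method), and differences are log2 fold changes with their standard error from edgeR's quasi-likelihood test, called at a Benjamini-Hochberg adjusted p below 0.05 over all tested genes. Eya3 was at 29.0, 26.0 and 24.7 CPM in add-back libraries, 25.3, 25.3 and 24.3 CPM in knockdown libraries, and 63.0, 64.1 and 60.9 CPM in scramble libraries, lower in every hairpin library than in any scramble library. Of 7 epithelial markers, 5 stayed under 0.3 CPM in every library, Cdh1 and Epcam among them, while Krt8 ran from 1030 to 1110 CPM in the add-back, 1250 to 1390 CPM in the knockdown and 594 to 647 CPM in scramble libraries. The sum of 7 mesenchymal markers, all tested, ran from 4760 to 5290 CPM in the add-back, 5940 to 6510 CPM in the knockdown and 4120 to 4510 CPM in scramble libraries, and in knockdown against scramble 3 of them rose, Vim by 0.46, and 2 fell, Snai2 by 1.43 and Cdh2 by 0.29. Of the epithelial markers, the adhesion genes were thus at or near 0 and Krt8 was not. Of 6 adipocyte markers, all but Fabp4 stayed under 0.3 CPM, and the sum of the 6, mostly Fabp4, ran from 1.13 to 1.91 CPM in add-back libraries, 0.572 to 0.712 CPM in knockdown libraries and 0.41 to 0.492 CPM in scramble libraries. Of 5 macrophage markers, Adgre1 had no count in 8 of 9 libraries and Ptprc reached 0.157 CPM, and the sum, mostly Cd68 and Mrc1, ran from 7.37 to 8.28 CPM in the add-back, 5.0 to 5.56 CPM in the knockdown and 19.8 to 21.2 CPM in scramble libraries. Of 4 endothelial markers, Kdr and Pecam1 stayed under 0.3 CPM, and the sum, mostly Cdh5, ran from 0.933 to 1.19 CPM in the add-back, 0.412 to 0.79 CPM in the knockdown and 4.6 to 5.27 CPM in scramble libraries. All 5 lymphocyte markers stayed under 0.3 CPM. The part of any such cells in the results below was not tested.

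The lowest count of any of the 33 genes in any library was 197, for Pmvk, whose fold changes have a standard error of 0.16, and Fdps, the next least precise, has one of 0.09. Within groups the coefficient of variation was 3.34% at the median and at most 8.91% for every gene but Pmvk, which reached 28.4%. Compared per kilobase of exon, Scd2 was the highest in scramble cells at 756 ± 25.1 CPM per kb (SD, n = 3, as for the next values). Scd1 followed at 165 ± 3.13 CPM per kb, then Fads2 at 80.0 ± 2.44, Fasn at 76.6 ± 3.41 and Acly at 66.0 ± 1.44 CPM per kb. Fads2 and Fasn did not differ beyond their spread, and the desaturases Scd1 and Scd2 stood apart from every other member. At the other end were Fdps at 1.77 ± 0.149 and Pmvk at 2.01 ± 0.197 CPM per kb. The length used is that of all annotated exons of a gene merged, 4.21 kb for Fdps. Reads of Fdps may also be placed on similar pseudogenes, so its rank is uncertain.

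The knockdown and scramble cells were compared first, to ask which of these genes differ when Eya3 is low. Neither pathway moved as a unit. Of 33 genes, 14 rose and 10 fell in knockdown cells, where 27.7% of all tested genes rose and 29.9% fell. None changed 2-fold or more, against 14.7% of all tested genes that did. The 24 called genes are 72.7% of the list, against 57.5% of all 16766 tested genes called in this comparison, a background so high that a call alone says little about a gene. That background also holds many genes at lower levels than the members. With only genes at 1 CPM or more in 3 libraries kept, 8430 of 12361 tested genes were called, and 15 members rose and 10 fell. The median log2 fold change was 0.00 over the list and -0.00 over all tested genes. The largest rises were in Sqle, Insig1, Fdps and Stard4, and the largest falls in Fasn and Dhcr7. In bulk RNA, a lower level in every cell and a smaller share of cells with the transcript cannot be told apart.

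**Figure D1:**
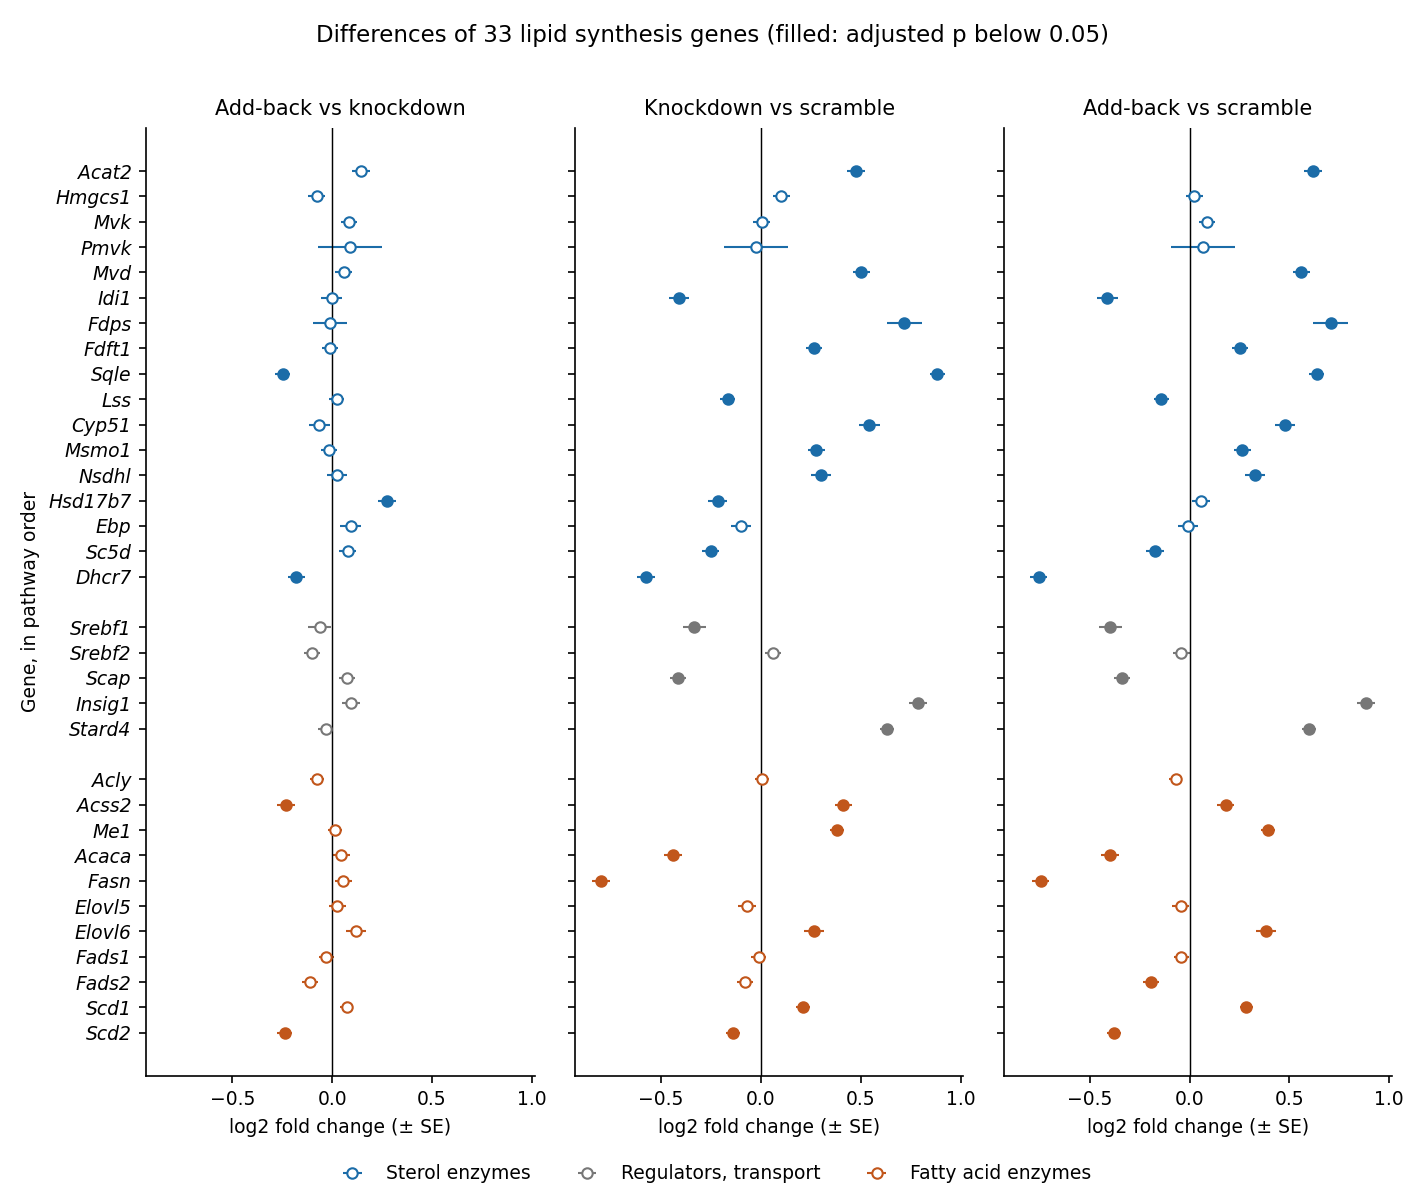
Log2 fold change (x axis, ± SE from edgeR) of the 33 genes in pathway order (y axis) in the 3 comparisons, with filled points for an adjusted p below 0.05. Knockdown against scramble and add-back against scramble each hold 14 rises and 10 falls, and add-back against knockdown holds 1 rise and 4 falls.

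The sterol enzymes are taken in the order in which they act. Of 17, 8 rose, 5 fell and 4 were not called in knockdown cells, with a median of 0.10. Acat2, the thiolase that joins acetyl units before the mevalonate pathway proper, had 85.5, 89.4 and 92.8 CPM in knockdown libraries, against 62.1, 64.7 and 65.5 CPM in scramble libraries. The groups did not overlap, and Acat2 rose by 0.48 ± 0.04 (edgeR adjusted p = 1.39e-07). It shares 1477 bases with Acat3 at 97.7% identity and 445 with Tcp1 at 98.7%, whose counts were 1010% of those of Acat2, so its level is uncertain. Hmgcs1 and Mvk, which act at HMG-CoA and at mevalonate, and Pmvk, the next kinase, were not called, at 0.10 ± 0.04, 0.00 ± 0.04 and -0.02 ± 0.16. Hmgcs1 lay at the threshold (edgeR adjusted p = 0.0533) and passed it in 7 of 17 alternative analyses, where its adjusted p ran from 0.00464 to 0.306.

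Mvd, which makes isopentenyl diphosphate, had 56.5, 59.3 and 60.7 CPM in knockdown libraries, against 41.3, 42.7 and 40.6 CPM in scramble libraries, and rose by 0.50 ± 0.04 (edgeR adjusted p = 2.94e-08). Idi1, the isomerase that acts on the product of Mvd, went the other way, with 39.2, 42.5 and 43.6 CPM in knockdown libraries, against 54.7, 53.8 and 58.1 CPM in scramble libraries, a fall by 0.41 ± 0.05 (edgeR adjusted p = 3.9e-06). Adjacent steps of one route thus changed in opposite directions, with no overlap of the libraries in either. Fdps, which makes farnesyl diphosphate, had 13.0, 12.5 and 11.4 CPM in knockdown libraries, against 7.73, 7.91 and 6.75 CPM in scramble libraries, and rose by 0.72 ± 0.09 (edgeR adjusted p = 2.62e-06). Its counts are uncertain, because 4 processed pseudogenes share at least 300 bases with it at 95% identity or more, and the closest, Gm3571, held counts equal to 21.5% of those given to Fdps. The gene model Gm43738, on the same strand, also covers 26.7% of its exon length and had no count.

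At the branch into sterols, Fdft1, squalene synthase, rose by 0.27 ± 0.04 (edgeR adjusted p = 2.64e-05). Exons of Fdft1 overlap 774 bases of Ctsb on the other strand, whose counts were 502% of those of Fdft1, and the strand setting of the counting is not given in the sources used here. Sqle (chromosome 15, 59315077 to 59331192, plus strand, GRCm38/mm10), squalene epoxidase and one of the rate-setting steps of the pathway, showed the widest rise of the list. It had 198, 195 and 189 CPM in knockdown libraries, against 106, 108 and 100.35 CPM in scramble libraries. All 3 knockdown libraries lay above all 3 scramble libraries, and the rise was 0.88 ± 0.04 (edgeR adjusted p = 8.45e-12), or 1.85-fold. Lss, which closes squalene epoxide to lanosterol, fell by 0.17 ± 0.04 (edgeR adjusted p = 0.00116).

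After lanosterol, Cyp51, Msmo1 and Nsdhl rose, and Hsd17b7, Sc5d and Dhcr7 fell. Cyp51, the lanosterol demethylase, had 221, 236 and 249.5 CPM in knockdown libraries, against 156, 163 and 166 CPM in scramble libraries, and rose by 0.54 ± 0.05 (edgeR adjusted p = 1.51e-07). Msmo1 and Nsdhl, which remove the methyl groups at carbon 4, rose by 0.28 ± 0.04 and 0.30 ± 0.05. Hsd17b7, the ketoreductase that works beside them, fell by 0.22 ± 0.05 (edgeR adjusted p = 0.000743). Of the last 3 enzymes, Ebp was not called (-0.10 ± 0.05, edgeR adjusted p = 0.109) and Sc5d fell by 0.25 ± 0.04. Dhcr7 (chromosome 7, 143823145 to 143848410, plus strand), the reductase that yields cholesterol at the end of the route, had 98.0, 95.6 and 96.3 CPM in knockdown libraries, against 145, 151 and 136 CPM in scramble libraries. It fell by 0.58 ± 0.04 (edgeR adjusted p = 6.74e-09), the largest fall among the sterol enzymes, with the groups well apart.

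**Figure D2:**
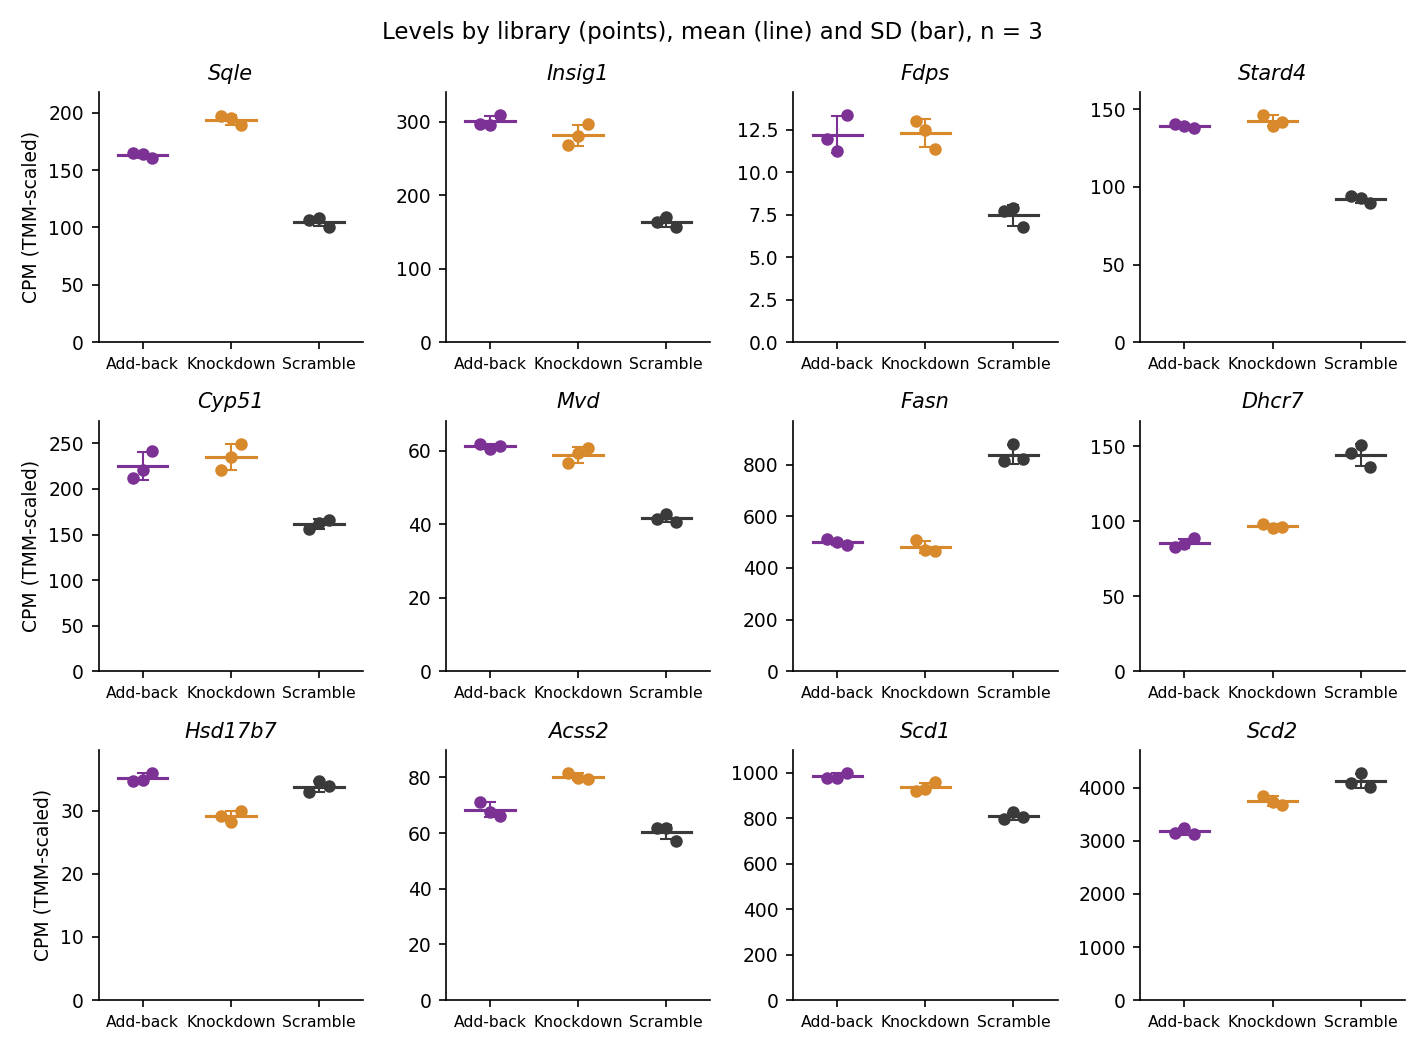
TMM-scaled CPM (y axis, linear, from 0) of 12 members in the add-back, knockdown and scramble libraries (points), with the mean (line) and SD (bar) of 3 libraries. Sqle, Insig1, Fdps, Stard4, Cyp51 and Mvd are lowest in scramble libraries, Fasn, Dhcr7 and Scd2 are highest there, and Hsd17b7 is lowest in knockdown libraries.

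Of the 5 genes of regulation and transport, Insig1 and Stard4 rose, Srebf1 and Scap fell, and Srebf2 was not called in knockdown cells. Srebf2 was at 399, 382 and 394 CPM in knockdown libraries, against 382, 392 and 354 CPM in scramble libraries, and was not called (0.06 ± 0.04, edgeR adjusted p = 0.241). Srebf1 was at 148, 144 and 127 CPM in knockdown libraries, against 184, 179.85 and 164 CPM in scramble libraries, and fell by 0.33 ± 0.06 (edgeR adjusted p = 0.000109). Scap was at 83.1, 77.4 and 76.0 CPM in knockdown libraries, against 106, 105 and 105 CPM in scramble libraries, and fell by 0.42 ± 0.04 (edgeR adjusted p = 2.34e-07). The transcripts of the escort protein and of SREBP-1 were thus lower in each knockdown library than in any scramble library.

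Insig1 (chromosome 5, 28071363 to 28078662, plus strand), which retains the Scap and SREBP complex, had 268, 280.2 and 297 CPM in knockdown libraries, against 163, 169.85 and 157 CPM in scramble libraries. The groups did not overlap, and Insig1 rose by 0.79 ± 0.04 (edgeR adjusted p = 1.8e-10). Stard4 (chromosome 18, 33199355 to 33213862, minus strand), a carrier that moves cholesterol between membranes, had 147, 139.5 and 142 CPM in knockdown libraries, against 94.0, 92.9 and 89.5 CPM in scramble libraries. It rose by 0.63 ± 0.04 (edgeR adjusted p = 2.59e-10), also without overlap.

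The fatty acid enzymes were as mixed as the sterol enzymes. Of 11, 4 rose, 3 fell and 4 were not called in knockdown cells, with a median of -0.01. Acss2, Me1, Elovl6 and Scd1 rose, and Acaca, Fasn and Scd2 fell. Fasn (chromosome 11, 120805846 to 120824547, minus strand), the synthase that builds palmitate, had 509, 469.9 and 465 CPM in knockdown libraries, against 813, 881 and 821 CPM in scramble libraries. It fell by 0.80 ± 0.04 (edgeR adjusted p = 1.27e-10), to 0.574 of the scramble level, the largest fall of the whole list. Acaca (chromosome 11, 84129672 to 84401651, plus strand), the carboxylase that supplies malonyl-CoA, had 181, 163 and 169.7 CPM in knockdown libraries, against 227, 244 and 229 CPM in scramble libraries, and fell by 0.44 ± 0.04 (edgeR adjusted p = 2.92e-07).

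Acly, which splits citrate into acetyl-CoA, was not called (0.00 ± 0.04, edgeR adjusted p = 0.942). Acss2, which makes acetyl-CoA from acetate, rose by 0.41 ± 0.04, and Me1, a source of NADPH, by 0.38 ± 0.04 (edgeR adjusted p = 4.69e-07 and 9.97e-08). Elovl6, which lengthens palmitate, rose by 0.27 ± 0.05, while Elovl5, Fads1 and Fads2, which serve polyunsaturated fatty acids, were not called, at -0.07 ± 0.04, -0.01 ± 0.04 and -0.08 ± 0.04. With library totals in place of TMM, Elovl5 and Fads2 passed as lower (edgeR adjusted p = 0.0309 and 0.0114), and the fatty acid falls numbered 5 in place of 3.

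The paired stearoyl-CoA desaturases, which put the first double bond into saturated chains, moved apart. Scd1 was at 977, 975 and 999 CPM in add-back libraries, 921, 929 and 958 CPM in knockdown libraries, and 795, 825 and 804 CPM in scramble libraries. Scd2 was at 3157, 3251.5 and 3127 CPM in add-back libraries, 3854, 3735 and 3668 CPM in knockdown libraries, and 4091, 4283.5 and 4017 CPM in scramble libraries. Scd1 was thus highest and Scd2 lowest in add-back libraries, and no library of one group overlapped another group for either gene, though Scd1 was not called between add-back and knockdown cells (0.07 ± 0.03, edgeR adjusted p = 0.227). Against scramble, Scd1 rose by 0.21 ± 0.03 and Scd2 fell by 0.14 ± 0.04 in knockdown cells (edgeR adjusted p = 5.04e-05 and 0.00372). Per kilobase of exon, Scd1 made up 25.7%, 25.1% and 26.3% of the sum of both in add-back libraries, 21.1%, 21.7% and 22.6% in knockdown libraries, and 17.8%, 17.7% and 18.3% in scramble libraries. The 2 transcripts share 623 bases at 95.5% identity, so some reads may be placed on the wrong gene.

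**Figure D3:**
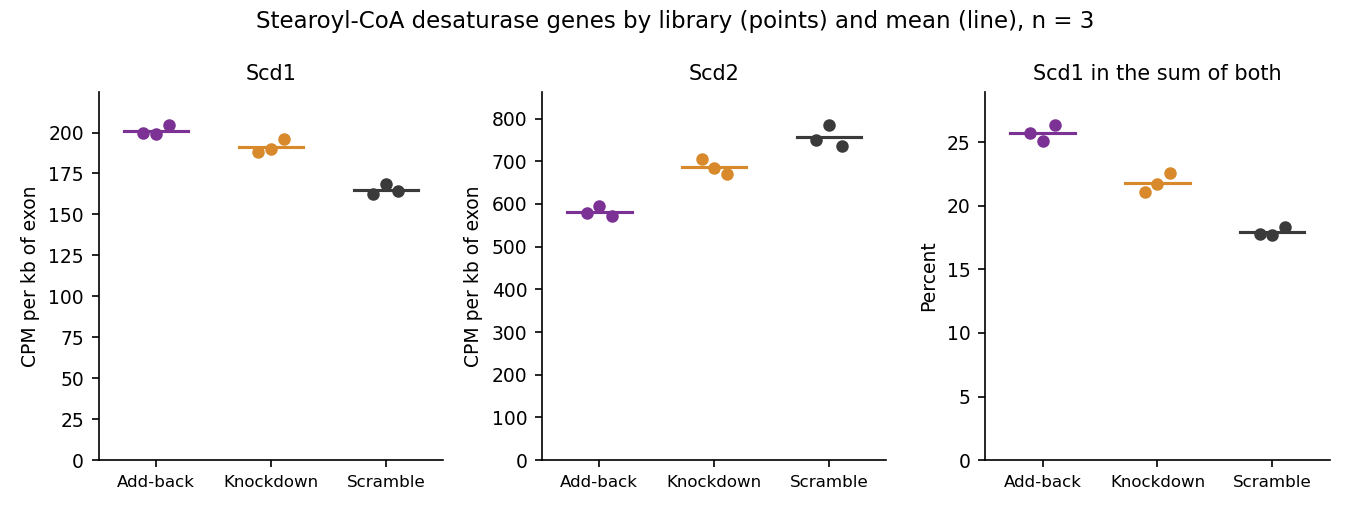
Scd1 and Scd2 in CPM per kilobase of exon and Scd1 as a percent of their sum (y axes from 0) in each library (points) with the mean of 3 (line). The share of Scd1 lies between 25.1% and 26.3% in the add-back, 21.1% and 22.6% in the knockdown and 17.7% and 18.3% in scramble libraries.

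Sterol and fatty acid enzymes were then set side by side. The called share was 76.5% of the sterol enzymes and 63.6% of the fatty acid enzymes in knockdown against scramble, beside 57.5% of all tested genes, and the difference between the groups was not tested. All tested genes include many at lower levels than these enzymes. The summed level of the 17 sterol enzymes was 1467, 1481 and 1551 CPM in add-back libraries, 1499, 1538 and 1557 CPM in knockdown libraries, and 1359, 1384 and 1351 CPM in scramble libraries. The summed level of the 11 fatty acid enzymes was 6021, 6093 and 6012 CPM in add-back libraries, 6719, 6545 and 6487 CPM in knockdown libraries, and 7111, 7446 and 7064 CPM in scramble libraries. The sterol sum was thus lowest and the fatty acid sum highest in scramble cells. Much of the sterol gap lay in Sqle, at means of 163, 194 and 105 CPM in add-back, knockdown and scramble cells. Cyp51 gave much of the rest, at means of 225, 235 and 161 CPM in the same order. Scd2 alone gave 52.0% to 57.5% of the fatty acid sum. Without Scd2 the other 10 summed to 2863, 2842 and 2885 CPM in the add-back, 2865, 2809 and 2819 CPM in the knockdown, and 3019.7, 3163 and 3047 CPM in scramble libraries, still highest in scramble. Fasn, 1 of these 10, averaged 500 CPM in the add-back, 481 CPM in the knockdown and 838 CPM in scramble libraries. It fell by more than this sum did, so the order of the sum rests on Fasn. Averaged gene by gene on the log2 scale, the sterol mean minus the fatty acid mean was -2.11, -2.12 and -2.025 in the add-back, -2.17, -2.11 and -2.11 in the knockdown, and -2.28, -2.29 and -2.31 in scramble libraries. These sums and means describe the chosen genes and carry no test.

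**Figure D4:**
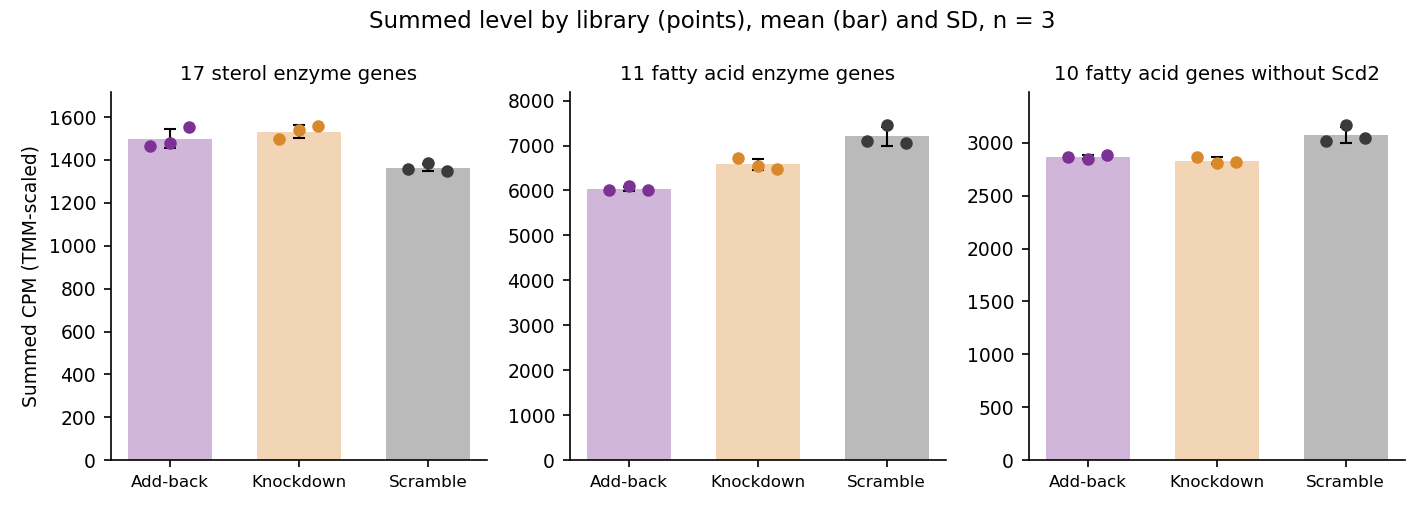
Summed TMM-scaled CPM (y axis from 0) of the sterol enzymes, the fatty acid enzymes and the fatty acid enzymes without Scd2, by library (points), with mean (bar) and SD of 3. The sterol sum is lowest and both fatty acid sums are highest in scramble libraries, the sum without Scd2 through Fasn.

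The promoters of members that rose and fell were compared in sequence, from RefSeq windows on GRCm38.p6 that run from 250 bases before to 50 after the start site. Of the 33 genes, 26 had a window in the set searched, which may not hold every window of the reference. Sqle and Stard4 were among the genes without one. More than 1 window was listed for 5 of the members, and 1 window per gene was searched. Both strands were searched for TCACNCCAC, a core of the sterol regulatory element, for CCAAT, the box bound by NF-Y, for the E-box CACGTG and for the GC box GGGCGG. The CCAAT box was in 19 of 26 windows (73.1%), against 37.9% of all 27025 windows in that set. It was in 6 of the 9 windows of genes that rose in knockdown cells, in 6 of the 9 of genes that fell and in 7 of the 8 of members not called. By pathway it was in 12 of 14 sterol enzyme windows and 4 of 8 fatty acid enzyme windows. TCACNCCAC was in 1 of 26 (3.85%), that of Hmgcs1, against 1.22% of all windows, CACGTG in 5 of 26 (19.2%) against 7.24%, and GGGCGG in 20 of 26 (76.9%) against 35.9%. Among 10751 windows of tested genes the shares were 39.8% for CCAAT, 1.11% for TCACNCCAC, 9.83% for CACGTG and 61.6% for GGGCGG. The E-box was in 1 of the 9 windows of genes that rose and in 3 of the 9 of genes that fell. The GC box was in 8 of 9 and in 6 of 9, and the sterol element in none of these windows. Among the 8 windows of members not called, the E-box was in 1, the GC box in 6 and the sterol element in 1. A match is a run of letters and not a shown binding site.

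The windows of 4 genes are printed 5′ to 3′ on the gene's strand, with matches to TCACNCCAC, CCAAT or CACGTG on either strand in capitals: Hmgcs1 as the holder of the sterol element, Insig1 as a gene that rose, and Fasn and Dhcr7 as genes that fell. They are at chr13:119690101-119690400 (plus), chr5:28071162-28071461 (plus), chr11:120824498-120824797 (minus) and chr7:143822917-143823216 (plus). In the Fasn window 2 CCAAT boxes on opposite strands overlap, and the Dhcr7 window has no match to these 3 motifs.
Hmgcs1: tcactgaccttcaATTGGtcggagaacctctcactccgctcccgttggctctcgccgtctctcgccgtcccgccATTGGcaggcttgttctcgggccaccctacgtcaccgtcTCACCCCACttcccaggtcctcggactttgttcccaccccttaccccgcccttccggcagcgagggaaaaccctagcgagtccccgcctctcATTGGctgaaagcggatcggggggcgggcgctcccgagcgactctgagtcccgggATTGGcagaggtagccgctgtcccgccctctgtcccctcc
Insig1: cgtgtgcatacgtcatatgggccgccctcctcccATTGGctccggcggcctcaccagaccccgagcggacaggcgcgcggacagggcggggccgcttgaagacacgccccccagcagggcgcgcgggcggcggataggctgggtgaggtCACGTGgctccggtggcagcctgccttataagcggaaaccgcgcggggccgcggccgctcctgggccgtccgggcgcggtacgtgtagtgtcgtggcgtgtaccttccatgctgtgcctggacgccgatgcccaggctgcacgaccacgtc
Fasn: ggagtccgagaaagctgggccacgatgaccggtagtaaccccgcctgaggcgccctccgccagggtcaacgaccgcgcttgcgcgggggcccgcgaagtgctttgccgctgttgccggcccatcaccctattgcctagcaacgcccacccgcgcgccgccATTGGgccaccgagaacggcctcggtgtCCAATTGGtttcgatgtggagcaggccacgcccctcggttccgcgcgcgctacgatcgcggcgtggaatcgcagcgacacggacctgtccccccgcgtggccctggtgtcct
Dhcr7: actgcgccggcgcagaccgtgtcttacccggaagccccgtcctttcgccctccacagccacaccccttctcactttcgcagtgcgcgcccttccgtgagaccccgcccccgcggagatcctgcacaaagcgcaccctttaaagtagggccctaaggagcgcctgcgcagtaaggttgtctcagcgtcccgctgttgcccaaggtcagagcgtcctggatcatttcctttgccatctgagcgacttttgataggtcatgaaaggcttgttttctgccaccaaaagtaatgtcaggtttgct

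Around some members, neighbouring genes shifted together between the hairpin lines. Each member was therefore set beside the median of up to 40 tested genes around it. For 5 of 33 members that median lay at least 0.3 from 0 in knockdown against scramble. The share of all tested genes with such a median was not computed. Acat2 lay among genes with a median of 0.45, close to its own 0.48. Lss on chromosome 10 lay among genes with a median of -0.63, well below its own -0.17, and Elovl6 on chromosome 3 among genes with 0.39 against its own 0.27. Fdps and Pmvk, both on chromosome 3, had neighbours at 0.30 and 0.34. For Sqle, Insig1 and Stard4 the neighbours were at 0.12, 0.12 and 0.13, and for Fasn and Dhcr7 at -0.07 and 0.01, each smaller in size than the change of the gene. After the neighbours' median was taken off, 22 of 24 called members kept their direction, all but Lss and Elovl6, and 19 of them by at least 0.2. Neither count was worked out for other called genes, so no background can be set beside it. The part of these regional shifts in the change of a gene was not tested.

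**Figure D5:**
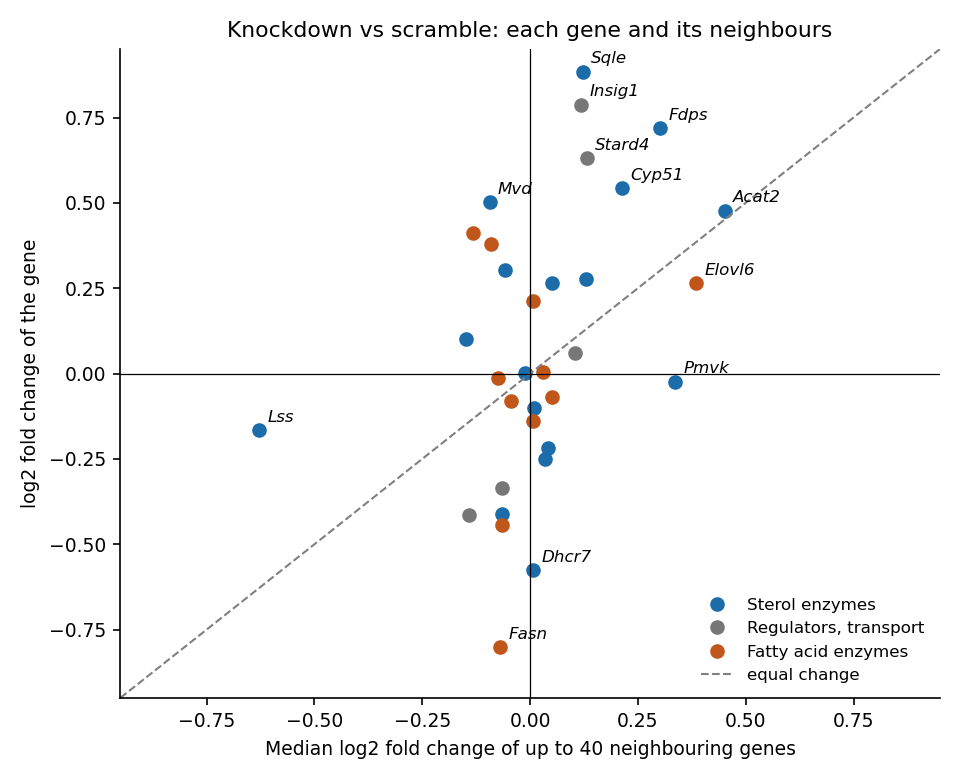
Log2 fold change of each member in knockdown against scramble (y axis) against the median of up to 40 neighbouring tested genes (x axis), with the line of equal change dashed. Acat2 lies near the line, Lss lies far to the left at -0.63, and Sqle, Insig1, Stard4, Fasn and Dhcr7 change while their neighbours lie between -0.07 and 0.13.

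The next comparison, add-back against knockdown, asks which of these genes differ when IKK2-SE is added and Eya3 is low. Ikbkb, the gene of IKK2, averaged 48.6 CPM in add-back, 44.3 CPM in knockdown and 47.8 CPM in scramble libraries. It was not called between add-back and knockdown cells (0.13 ± 0.05, edgeR adjusted p = 0.0809). These counts thus do not show how strongly IKK2-SE was expressed. Few of the 33 genes were called in this fit. Of 33 genes, 1 rose and 4 fell in add-back cells, where 5.61% of all tested genes rose and 4.82% fell. That is 15.2% of the list against 10.4% of all tested genes called, and the median was 0.01 for the list and 0.00 for all tested genes. Rises were 53.8% of all calls, and 65.9% with library totals in place of TMM. None of the 33 changed 2-fold or more, against 1.66% of all tested genes. Hsd17b7 was at 34.7, 34.8 and 36.0 CPM in add-back libraries, against 29.1, 28.2 and 30.0 CPM in knockdown libraries, and rose by 0.27 ± 0.05 (edgeR adjusted p = 0.000838). Its scramble libraries were at 32.9, 34.6 and 33.9 CPM, and add-back against scramble was not called (0.06 ± 0.05, edgeR adjusted p = 0.314).

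The 4 falls were in Sqle, Scd2, Acss2 and Dhcr7. Sqle was at 165, 164 and 161 CPM in add-back libraries, below the 198, 195 and 189 CPM of the knockdown libraries and above scramble, a fall by 0.25 ± 0.04 (edgeR adjusted p = 0.000333). Acss2 was at 71.3, 67.7 and 66.2 CPM in add-back libraries, 81.6, 79.8 and 79.4 CPM in knockdown libraries, and 61.9, 61.9 and 57.3 CPM in scramble libraries, and fell by 0.23 ± 0.04 against knockdown (edgeR adjusted p = 0.00188). Both thus lay between knockdown and scramble in add-back cells. Scd2 fell by 0.24 ± 0.04 against knockdown (edgeR adjusted p = 0.00033), away from scramble. Dhcr7 was at 82.7, 84.5 and 88.7 CPM in add-back libraries, below both other groups, and fell by 0.18 ± 0.04 against knockdown (edgeR adjusted p = 0.0121), a call that was lost without add-back replicate 1 (-0.155 ± 0.05, edgeR adjusted p = 0.0642).

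The other genes with wide knockdown changes were not called here. In this fit none of the 5 regulators was called between add-back and knockdown cells, with Srebf1 at -0.06 ± 0.06, Srebf2 at -0.10 ± 0.04, Scap at 0.075 ± 0.04, Insig1 at 0.09 ± 0.04 and Stard4 at -0.03 ± 0.04. Fasn was at 510.2, 499 and 490.4 CPM in add-back libraries and differed from knockdown by 0.055 ± 0.04 (edgeR adjusted p = 0.529). Acat2 at 0.14 ± 0.04 narrowly missed the threshold (edgeR adjusted p = 0.056) and passed it in 5 of 17 alternatives, over which its adjusted p ran from 0.00347 to 0.234. A p above the threshold does not show that the levels were equal, and the standard errors here, near 0.04 for most members, bound how small a difference could be seen.

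The last comparison, add-back against scramble, asks which of them differ when the hairpin and IKK2-SE are both present. This comparison shares its add-back libraries with the previous one and its scramble libraries with the first. Here 14 genes rose and 10 fell, where 27% of all tested genes rose and 28.7% fell, so that 72.7% of the list was called against 55.8% of all tested genes. None changed 2-fold or more, against 14% of all tested genes. Insig1 was at 297, 295 and 309 CPM in add-back libraries and rose by 0.88 ± 0.04 against scramble (edgeR adjusted p = 4.95e-11), and Stard4, at 141, 139 and 138 CPM, by 0.60 ± 0.04. Dhcr7 fell by 0.76 ± 0.04 and Fasn by 0.75 ± 0.04 (edgeR adjusted p = 2.63e-10 and 3.24e-10). For Fdps, Sqle, Acat2 and Mvd the rises were 0.71 ± 0.09, 0.64 ± 0.04, 0.62 ± 0.04 and 0.56 ± 0.04, with edgeR adjusted p from 5.06e-10 to 3.63e-06. In the add-back libraries Acat2 had 94.7, 96.5 and 104 CPM, Mvd 61.8, 60.5 and 61.2 CPM, and Fdps 12.0, 11.2 and 13.4 CPM, each above every scramble library. Scd2 fell by 0.38 ± 0.04 and Scd1 rose by 0.28 ± 0.03. Srebf1, at 140.1, 133 and 128 CPM in add-back libraries, fell by 0.40 ± 0.06, and Scap, at 85.5, 80.6 and 83.0 CPM, by 0.34 ± 0.04, while Srebf2, at 370.3, 372 and 354 CPM, was not called (-0.04 ± 0.04, edgeR adjusted p = 0.421). By group, 8 sterol enzymes rose and 4 fell, and 4 fatty acid enzymes rose and 4 fell, Fads2 now among the falls (by 0.19 ± 0.04, edgeR adjusted p = 0.000645).

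Other genes of the same pathways were counted from lists drawn up beside the members. In knockdown against scramble, 4 of 12 further genes of sterol and isoprenoid synthesis rose and 1, Lbr, fell by 0.11. Over all tested genes 27.7% rose and 29.9% fell, which is the background for these lists, and none was tested against it. The rises were Pdss2 and Coq2, which build coenzyme Q, by 0.98 and 0.39, and the prenyltransferase subunits Fnta and Pggt1b, by 0.21 and 0.15. Of 9 tested genes listed with SREBP control, 5 rose and none fell. The rises were led by Mbtps1, the protease that makes the first cut in SREBP, by 0.26 and by Insig2, the partner of Insig1, by 0.30. Another of the 5 was Mlxip, by 0.23, a transcription factor gene that does not itself belong to SREBP control. Of 14 tested genes of fatty acid synthesis and elongation outside the members, 5 rose and 4 fell, with Mcat, of mitochondrial fatty acid synthesis, falling by 0.83 and the elongase Elovl1 rising by 0.38. Of 7 tested genes of LXR signalling and sterol handling, 4 rose and 3 fell. Nr1h3, the liver X receptor alpha, fell by 0.95, at low means of 2.13 CPM in knockdown and 4.12 CPM in scramble libraries. Nr1h2, the liver X receptor beta, rose by 0.36, at means of 107 and 83.3 CPM in the same order. Lpcat3 fell by 0.58, and the ubiquitin ligase gene Mylip rose by 0.48. Abca1 and Abcg1, the sterol exporters, had too few counts to test, at 0.041 and 0.043 CPM on average in the add-back, 0 and 0.013 CPM in the knockdown, and 0.024 and 0.105 CPM in scramble cells. Between add-back and knockdown cells, 1 gene of sterol and isoprenoid synthesis rose, 1 listed with SREBP control (Mlxip) and 1 of LXR signalling and sterol handling. None of fatty acid synthesis and elongation rose, and none of these 4 lists fell. Over all tested genes 5.61% rose and 4.82% fell there.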

How the data were processed

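The authors deposited raw counts, 1 whole number per gene symbol and library, without normalization. The submitters' processing notes name STAR, FastQC, MultiQC and the mm10 build. Tool versions, the read counter, its annotation and its use of strand were not given in the sources available for this work. The count columns of the Eya3 hairpin libraries read KD3 where the labels read KD2, so columns were matched on arm and replicate number. Replicates differed by more than sampling noise (chi-square per degree of freedom 3.85 to 20.75).

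Genes were kept with filterByExpr (minimum count 10, minimum total 15), scaled with TMM and fitted in edgeR 4.0.16 (R 4.3.3) by robust quasi-likelihood with group as the term, 6 residual degrees of freedom and a common coefficient of variation of 5.26%. The standard error is the size of the log2 fold change over the square root of F. P-values were adjusted over all 16766 tested genes. The code of the fit was run on simulated counts, with a small share of genes changed, in knockdown libraries alone, and the same spread for every gene. That setting is simpler than these data, so it does not show the error rate here. Alternatives were DESeq2 1.42.0, limma 3.58.1 voom, other scalings and filters, fits of 2 groups, the replicate number as a block, and leaving out each library.

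Positions and exon lengths are from GENCODE M21 on GRCm38/mm10, which gave 96.9% of tested genes 1 position. Similar transcripts were found with megablast at 95% identity over at least 300 bases, for 11 members, and 12 members share exon bases with another gene. Members with values by library were up to 8 called genes with the largest changes in each comparison, the regulators and both Scd genes; those of Idi1 and Acaca were added after their values were seen. Members and lists were chosen with earlier results of these data known.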

Additional observations from a re-analysis of the deposited data

How the results depend on the processing

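The 24 calls against scramble, for knockdown and for add-back, kept direction and call in all 17 alternatives. Of the 5 calls between add-back and knockdown, all but that of Dhcr7 did. Uncalled members near the threshold gained a call in some. With library totals the fatty acid falls in knockdown against scramble numbered 5, and 65.9% of all calls between add-back and knockdown were rises, against 53.8% with TMM, with the median of all genes moved by under 0.1. Sterol rises between add-back and knockdown numbered 2 with library totals, with the 1 CPM filter and with the replicate block. The second was Acat2 each time, also without knockdown replicate 3 or add-back replicate 1. Without add-back replicate 1 sterol falls numbered 1 and fatty acid rises 1; over all left-out libraries sterol rises ran from 1 to 2, sterol falls from 1 to 2 and fatty acid rises from 0 to 1. The cause was not tested.

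Same-numbered libraries correlated from -0.033 to 0.475 in their deviations from the group mean, and 7 of 9 libraries correlated best with their own number. Libraries of different groups and different numbers correlated from -0.423 to 0.18. Not every same-number correlation was over 0.1, so the numbers were not taken as pairs, and the labels do not say whether they are. With the replicate block, 2678 genes were called between add-back and knockdown against 1749 without it, with 1 fatty acid rise, Elovl6, and with Fads2 and the regulator Srebf2 added to the falls (edgeR adjusted p = 0.00798 and 0.0315). Of the 33 members, 3 rose and 6 fell between add-back and knockdown with the block. In knockdown against scramble the block also added Hmgcs1, Ebp and Fads2.

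14 uncalled values changed sign in some alternative, with an adjusted p of at least 0.295 each time. With library totals, Mvk and Acly were at -0.045 and -0.044 in knockdown against scramble, and Idi1, Fdps, Fdft1 and Msmo1 at 0.025, 0.016, 0.015 and 0.014 in add-back against knockdown. Idi1 was at 0.004 there with the 1 CPM filter and at 0.001 with 2 groups fitted, and Ebp at 0 in add-back against scramble with 2 groups fitted. With 1 library left out, values in knockdown against scramble ran from -0.009 to 0.035 for Acly, -0.042 to 0.014 for Fads1, -0.019 to 0.028 for Mvk and -0.087 to 0.06 for Pmvk. In add-back against knockdown they ran from -0.043 to 0.038 for Idi1, -0.082 to 0.044 for Fdps, -0.033 to 0.025 for Fdft1, -0.05 to 0.016 for Msmo1, -0.05 to 0.006 for Fads1, -0.156 to 0.245 for Pmvk, -0.021 to 0.064 for Nsdhl and -0.025 to 0.06 for Elovl5. In add-back against scramble they ran from -0.042 to 0.024 for Ebp and -0.176 to 0.227 for Pmvk.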

Other observations

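Genes that burn or store fatty acids, counted from lists drawn up beside the members, were counted in knockdown cells as well, where 57.5% of all tested genes were called. By direction, 27.7% of all tested genes rose and 29.9% fell there. The share called in each list was not tested against that background. Of 15 tested genes of fatty acid oxidation, 8 rose and 2 fell against scramble (edgeR adjusted p below 0.05), with a median of 0.26 against -0.00 over all tested genes. Hadh, Acadm and Hadha, enzymes of the mitochondrial cycle, rose by 0.96, 0.80 and 0.74. Ppard, a nuclear receptor for fatty acids, fell by 0.51. Between add-back and knockdown cells none of the 15 rose and 3 fell, among them Ppard by 0.31 and Hadh by 0.145. Over all tested genes 5.61% rose and 4.82% fell in that comparison.

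Of 12 genes of glycerolipid synthesis and lipid droplets, 3 rose and 6 fell in knockdown cells, where 27.7% of all tested genes rose and 29.9% fell. Agpat3, an acyltransferase, fell by 1.35, the lipase gene Lipe by 1.17 and Mogat2 by 1.98, while the droplet protein gene Plin3 rose by 0.40. Mogat2 was low, at means of 1.2 CPM in knockdown and 4.72 CPM in scramble libraries. Of 7 genes listed for NADPH supply, a broad list whose members do not all make NADPH themselves, 5 rose and 2 fell. Me2 and Me3, the mitochondrial malic enzymes, rose by 1.44 and 2.29. Me3 was low, at means of 5.55 CPM in knockdown and 1.14 CPM in scramble libraries, and Me2 was at 576 and 213 CPM. The falls were G6pdx, which opens the pentose phosphate pathway, by 1.05, and Pgd of the same pathway by 0.205. Regional shifts around these genes were not measured.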
